A study of Mus musculus with 2 samples.

Results

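The immature neutrophils of the sorted metaphyseal bone preparation were 202 of the 1766 cells that passed the cell filters, of 3428 barcodes in all. They were chosen by measured values and by nothing else: a kept cell (200 to 6000 genes, at most 10% of its unique molecular identifiers, or UMIs, from mitochondrial genes) was a member when Ngp, Camp and Ltf together made at least 50 of every 10000 UMIs and Mpo, Elane and Prtn3 together under 20. The levels of those 6 genes are therefore a description of the choice and not a result. There were 19 members in the vehicle library and 183 in the teriparatide library.

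Both libraries came from Gli1-CreERT2; Ai9 mice on a mixed background. In these mice tamoxifen switches on the red protein tdTomato in cells in which the Gli1 gene is active, and in their progeny; Gli1, a target of Hedgehog signaling, marks mesenchymal progenitors below the growth plate and is not a neutrophil marker. At 1 month of age the mice were given tamoxifen for 3 days and then 3 daily intraperitoneal injections of vehicle or of teriparatide, a fragment of parathyroid hormone, at 400 ng per g. Cells of the femoral metaphysis were sorted as tdTomato positive and negative for CD31, CD45 and Ter119 before droplet RNA sequencing. The labels give 1 library per condition, taken here as pooled from mice of both sexes since no map from cells to mice was used, so no difference between the conditions could be tested. Every interval below covers counting error only and does not include the spread between mice, sorts or libraries.

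Neutrophils mature in the bone marrow from promyelocytes through myelocytes and metamyelocytes to band and segmented cells. Granule proteins are made in waves: primary granule enzymes such as myeloperoxidase and elastase in promyelocytes, secondary granule proteins such as lactoferrin in myelocytes and metamyelocytes, and the gelatinase of tertiary granules later. Division stops during the secondary granule stage, and the receptors and signaling molecules of the circulating cell follow.

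The 3 genes of the rule lie on chromosome 9 (GRCm38 coordinates). Camp, which encodes the cathelicidin antimicrobial peptide, is at chr9:109847379-109849617, Ngp, neutrophilic granule protein, at chr9:110419747-110423012, and Ltf, the iron-binding lactoferrin, at chr9:111019271-111042767. The 250 bases before the RefSeq start site (build GRCm38.p6) are shown for these 3 genes, for Lcn2, a siderophore-binding secondary granule protein, for Mmp8, the neutrophil collagenase, for Fcnb, a ficolin, and for S100a8 and S100a9, the calprotectin subunits, because the results below turn on them. Each runs 5′ to 3′ on the strand of the gene. Capitals mark matches on either strand to the C/EBP motif TTGCNNAA or the PU.1 motif GAGGAAGT; both factors act in the granulocyte lineage.

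Camp: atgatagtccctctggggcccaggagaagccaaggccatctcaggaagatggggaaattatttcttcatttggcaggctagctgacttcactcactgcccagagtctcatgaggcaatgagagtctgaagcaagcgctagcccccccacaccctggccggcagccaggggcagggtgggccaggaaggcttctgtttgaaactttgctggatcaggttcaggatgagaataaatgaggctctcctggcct
Ngp: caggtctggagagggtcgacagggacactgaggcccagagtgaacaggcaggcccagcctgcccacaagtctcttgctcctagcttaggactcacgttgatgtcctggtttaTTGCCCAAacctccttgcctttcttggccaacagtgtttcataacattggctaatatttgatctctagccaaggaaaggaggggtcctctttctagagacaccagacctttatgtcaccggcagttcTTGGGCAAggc
Ltf: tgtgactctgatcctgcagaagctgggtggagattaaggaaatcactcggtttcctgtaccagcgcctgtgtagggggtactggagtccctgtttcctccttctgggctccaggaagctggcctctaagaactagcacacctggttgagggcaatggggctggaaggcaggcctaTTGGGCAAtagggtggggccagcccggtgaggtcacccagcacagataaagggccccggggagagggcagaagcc
Lcn2: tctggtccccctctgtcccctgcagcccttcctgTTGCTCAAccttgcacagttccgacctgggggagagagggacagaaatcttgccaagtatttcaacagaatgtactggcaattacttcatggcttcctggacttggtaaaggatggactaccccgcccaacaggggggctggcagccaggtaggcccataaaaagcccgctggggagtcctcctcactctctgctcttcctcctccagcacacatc
Fcnb: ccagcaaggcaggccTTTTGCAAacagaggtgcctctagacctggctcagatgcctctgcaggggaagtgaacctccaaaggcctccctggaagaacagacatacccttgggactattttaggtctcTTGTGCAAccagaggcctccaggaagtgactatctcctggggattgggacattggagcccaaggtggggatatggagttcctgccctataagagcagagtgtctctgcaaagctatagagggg
Mmp8: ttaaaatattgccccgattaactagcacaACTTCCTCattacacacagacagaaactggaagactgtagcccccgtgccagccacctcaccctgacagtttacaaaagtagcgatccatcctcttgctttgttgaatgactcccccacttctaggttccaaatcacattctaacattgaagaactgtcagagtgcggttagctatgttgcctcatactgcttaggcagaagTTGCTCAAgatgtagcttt
S100a8: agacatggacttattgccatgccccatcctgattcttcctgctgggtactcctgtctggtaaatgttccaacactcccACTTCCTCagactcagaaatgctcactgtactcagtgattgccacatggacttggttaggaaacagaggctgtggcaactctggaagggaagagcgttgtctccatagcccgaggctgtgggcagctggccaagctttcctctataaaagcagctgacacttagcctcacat
S100a9: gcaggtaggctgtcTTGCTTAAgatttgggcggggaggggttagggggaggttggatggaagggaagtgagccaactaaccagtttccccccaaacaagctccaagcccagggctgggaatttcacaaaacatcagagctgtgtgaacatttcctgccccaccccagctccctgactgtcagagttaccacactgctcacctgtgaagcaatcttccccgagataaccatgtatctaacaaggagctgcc

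The window of Camp is chr9:109849457-109849706 on the minus strand. That of Ngp is chr9:110419558-110419807 and that of Ltf chr9:111019042-111019291, both on the plus strand. The RefSeq start sites used for these windows lie inside the gene coordinates given above, so each window overlaps the stated gene. The Ngp match at 11 bases lies in that overlap. Ngp held 2 C/EBP matches, 138 and 11 bases before its start, Ltf held 1, at 75 bases, and Camp held neither motif. Lcn2 (chr2:32387740-32387989, minus strand) held 1 C/EBP match at 216 bases, and Fcnb (chr2:28084879-28085128, minus strand) held 2, at 235 and 123 bases. Mmp8 (chr9:7558179-7558428, plus strand) held a C/EBP match at 19 bases and a PU.1 match at 221 bases. S100a8 (chr3:90668821-90669070, plus strand) held a PU.1 match at 172 bases and S100a9 (chr3:90695722-90695971, minus strand) a C/EBP match at 236 bases. Of all 32851 windows of this length in the table, 9.56% held the C/EBP letters and 2.44% the PU.1 letters. Counted per gene, with a match before any listed start, the C/EBP letters were found in 4 of 13 secondary granule genes with an entry (30.8%), in 6 of 15 tertiary granule and late genes (40%) and in 0 of 7 primary granule genes, against 10.8% of 27025 genes. The genes and motifs were picked with their levels known, and a match is a run of letters and not a binding site.

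**Figure D1:**
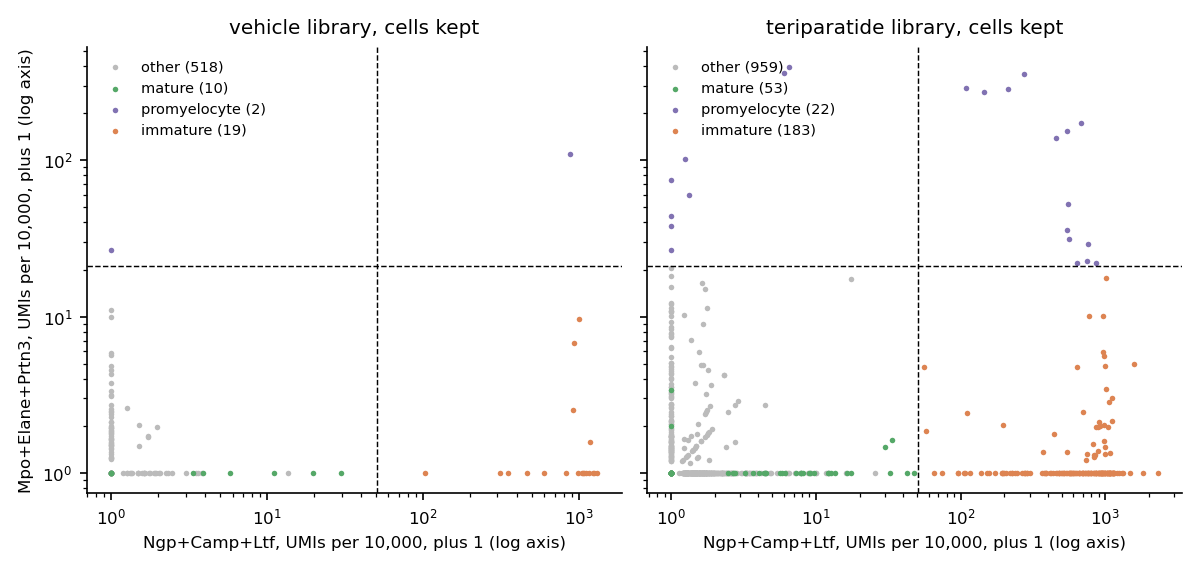
Ngp, Camp and Ltf summed (x axis) against Mpo, Elane and Prtn3 summed (y axis) in each kept cell, as UMIs per 10000 plus 1 on log axes, 1 panel per library. The dashed lines are the limits of the rule; the 19 vehicle and 183 teriparatide members lie to the right of 50 and below 20.

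Most members lay far from the limits of the rule. Ngp, Camp and Ltf together reached a median of 994 per 10000 UMIs in the vehicle cells (lowest 102, highest 1313) and 794 in the teriparatide cells (54.98 to 2306). Just inside, from 50 to under 100, were 0 vehicle and 6 teriparatide cells (54.98 to 95.5). Just outside, from 25 to under 50, were 1 vehicle cell at 28.6 and 5 teriparatide cells at 29.0 to 46.2. The primary granule limit kept out 1 vehicle and 14 teriparatide cells that met the first condition. Among the members, Mpo, Elane and Prtn3 were at 0 in 15 of 19 and 146 of 183 cells.

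The other listed markers of the class were found in the members. Mature neutrophils carried them too, so their presence alone did not mark the immature state. At equal depth each was seen in a smaller share of the mature cells, and Lcn2 and Cd177 were at lower levels there, as given below. Lcn2 had UMIs in all 202 members. Cd177, a surface glycoprotein of neutrophils, had UMIs in 19 of 19 vehicle and 180 of 183 teriparatide members, and Ly6g, the surface antigen used to sort mouse neutrophils, in 19 of 19 and 176 of 183. At an equal 2000 UMIs per cell, which left out 9 shallower teriparatide cells, Cd177 was seen in 89.5% and 89.1% and Ly6g in 68.4% and 77.0%. In mature neutrophils at the same depth, 10 vehicle and 50 teriparatide cells, Lcn2 was seen in 80% and 82%, Cd177 in 10% and 30% and Ly6g in 40% and 48%. In the mesenchymal cells of the same libraries, with median depths of 13106 and 23151 UMIs, Cd177 had a UMI in 0.744% and 1.24% of cells. The members' median depths were 9969 and 13306 UMIs. Ly6g had a UMI in 0.709% of the teriparatide mesenchymal cells and in 0 of 403 vehicle ones, where a limit of 3 counts of the total allows a share of up to 0.744%; the limit is on cells with a UMI, not on cells expressing the gene. Lcn2 had a UMI in 3.72% and 14.5% of mesenchymal cells, and in 0.26% and 1.69% at 2000 UMIs per cell. Of the 6 listed markers, Lcn2 had the most UMIs in the vehicle mesenchymal cells and Ngp in the teriparatide ones. Whether mesenchymal cells make Lcn2 was not tested. The abundant S100a8 had a UMI in 6.45% and 70.9% of the mesenchymal cells, and in 2.08% and 14.5% at 2000 UMIs.

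Markers of other lineages differed in level among the members. No marker of eosinophils, basophils or mast cells was counted in the vehicle members, and 1 UMI in the teriparatide members. Monocyte markers summed to 1421 and 1272 CPM (a gene's UMIs per 1000000 UMIs, summed over the members of a library), led in both by Ly6c2, with all 10 genes present. Lymphoid markers summed to 114 and 101 CPM, led by Cd3d, while Cd3e was at 0 in both libraries. The sort had been set against CD45, yet Ptprc, the gene of CD45, had UMIs in 18 of 19 and 176 of 183 members (378 and 412 CPM) and in 1 of 403 and 3 of 564 mesenchymal cells. Pth1r, the receptor for teriparatide, had a UMI in 1 of 19 and 1 of 183 members, against 322 of 403 and 501 of 564 mesenchymal cells.

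Immature neutrophils made a larger share of the teriparatide library. They were 19 of 549 kept vehicle cells, or 3.46% (exact 95% Clopper-Pearson interval 2.096 to 5.35), and 183 of 1217 kept teriparatide cells, or 15.04% (13.1 to 17.2). The ratio of the shares was 4.34 (95% interval 2.74 to 6.89) and their difference 11.6 percentage points (8.90 to 14.0). Mature neutrophils, taken as kept cells with S100a8 and S100a9 at 200 or more per 10000 UMIs and neither granule set at its limit, were 1.82% and 4.35%, a ratio of 2.39 (1.23 to 4.66). Promyelocytes with granulocyte-monocyte progenitors, taken as kept cells with Mpo, Elane and Prtn3 at 20 or more and called promyelocytes below, were 2 and 22 cells, a ratio of 4.96 (1.17 to 21.03). As a share of these 3 granulocyte classes the immature cells were 19 of 31 (61.3%, interval 42.2 to 78.2) and 183 of 258 (70.9%, 65.0 to 76.4), with a ratio of 1.16 (0.866 to 1.55) whose interval includes 1.

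Several other values moved with the share. The vehicle library lost 55.8% of its barcodes to the mitochondrial limit and the teriparatide library 40.2%, and mesenchymal cells were 73.4% and 46.3% of the kept cells. Of the members whose sex could be called from their transcripts, 7 of 11 vehicle and 88 of 110 teriparatide cells were male; of the mesenchymal cells 52.1% and 90.0% were male, although the methods state an equal sex makeup of the groups. Among male cells alone the members were 7 of 213 and 88 of 722 (12.2%). As each condition had 1 library, the condition, the sort, the sex makeup and the gate cannot be told apart as sources of the larger share, and a smaller number of other cells would raise it in the same way. The libraries shared 2 barcodes, none of them among the members.

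Calprotectin led the members' RNA, by UMIs, which tag the 3′ end of a transcript and do not scale with its length. S100a9 was first at 164947 CPM over all 202 cells, followed by S100a8 at 163437 CPM, Ngp and Camp; S100a9 led in the vehicle library only (129642 against 87108 CPM), and S100a8 in the teriparatide library (169564 against 167781 CPM). The 15 most abundant genes also held the granule proteins Lcn2, Lyz2 (lysozyme), Chil3 (a chitinase-like lectin), Ltf and Retnlg (a resistin-like secreted protein). The rest were Wfdc21, Anxa1 (annexin A1), Hmgb2, the actin regulator Tmsb4x, the actin gene Actb and the nuclear RNA Malat1.

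Lcn2 was found in every member, whereas Retnlg, Mmp8 and Fcnb had 0 UMIs in some. Depths ran from 3429 to 30074 UMIs in the vehicle members and from 525 to 70859 in the teriparatide members, so a 0 need not mean absence. Lcn2 ranged from 136 to 355 UMIs per 10000 in the vehicle cells (median 224) and from 41.2 to 632 in the teriparatide cells (median 170), with no cell at 0. Retnlg ranged from 0 to 481 (median 35.6) and from 0 to 1422 (median 46.8), with 2 and 11 cells at 0. Mmp8 was at 0 in 6 of 19 and 53 of 183 cells. Fcnb was at 0 in 10 of 19 and 114 of 183 cells and reached 18.4 and 19.3 per 10000 in the highest. The ranges of the 2 libraries overlapped for each of these 4 genes.

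**Figure D2:**
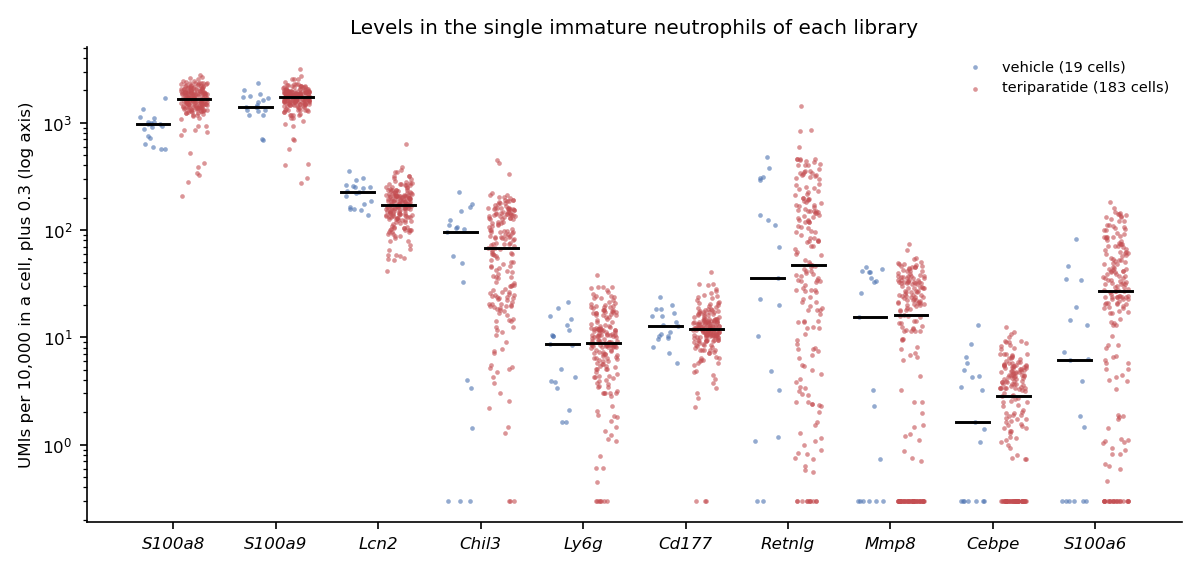
UMIs per 10000 (plus 0.3, log axis) of 10 genes in each of the 19 vehicle and 183 teriparatide members; each point is a cell and each bar a median. S100a8 medians were 969 and 1675, S100a6 medians 5.81 and 26.6, and Lcn2 medians 224 and 170.

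The members fell along a gradient from dividing cells with few late transcripts to non-dividing cells with many. Each cell was thinned to 2000 UMIs and called cycling when the lists of S phase and of G2 and mitosis genes together had at least 2 UMIs. There were 9 cycling cells of 19 in the vehicle library (47.4%, interval 24.4 to 71.1) and 48 of 174 in the teriparatide library (27.6%, 21.1 to 34.9). The difference of -19.8 percentage points had an interval of -41.6 to 1.47, which includes 0. Without thinning the shares were 57.9% and 51.9%. By the same call 0 of 10 vehicle mature neutrophils, for which 3 counts of the total would be a share of 30.0%, and 2 of 50 in the teriparatide library were cycling, against 2 of 2 and 21 of 22 promyelocytes.

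Mmp8, Mmp9 (gelatinase B, of tertiary granules) and Retnlg together had a median of 2 UMIs of 2000 in the 9 cycling vehicle cells (0 to 4) and 51.5 in the 10 others (9 to 111), and these ranges did not overlap. In the teriparatide library the medians were 1 (0 to 113) and 31.5 (0 to 175), with overlapping ranges. At least 10 late UMIs were found in 0 of 9 and 7 of 48 cycling cells and in 9 of 10 and 97 of 126 others. Across cells, Spearman's rho between cycle and late UMIs was -0.76 over 19 vehicle cells and -0.54 over 174 teriparatide cells; the cells share a library and an equal depth, and the value is a description. Before thinning the cycling cells were deeper, with medians of 19878 against 8884.5 UMIs in the vehicle library and 30022.5 against 11991.5 in the teriparatide library. Its part in the gradient after thinning was not tested.

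**Figure D3:**
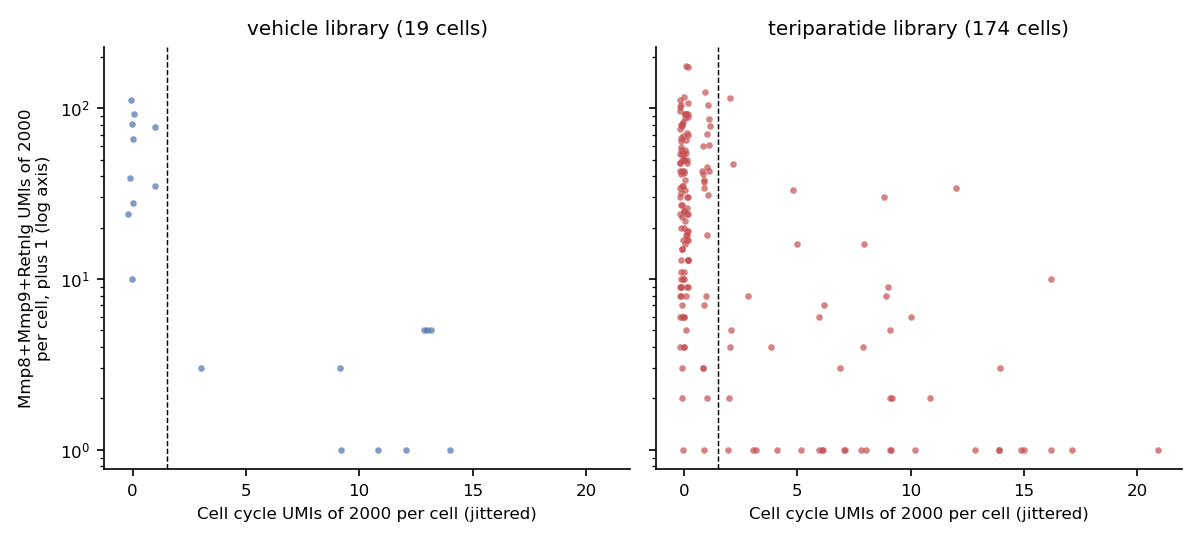
UMIs of the cell cycle lists (x axis, jittered) against UMIs of Mmp8, Mmp9 and Retnlg plus 1 (y axis, log) after thinning each member to 2000 UMIs, 1 panel per library with 19 and 174 cells. The dashed line has cells with at least 2 cycle UMIs to its right; the 9 vehicle cells there have at most 4 late UMIs.

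Cycling members had more Fcnb and Ms4a3 and less late granule RNA than non-cycling members. Called genes were those with at least 50 UMIs over the 2 groups compared and a ratio of 2-fold or more, a log2 ratio past 1. Over both libraries 18.9% of 4462 tested genes were higher and 8.81% lower in the cycling than in the non-cycling members, with a median log2 ratio of 0.15; the cycle genes define the split and are not counted as a result. Fcnb was at 639 CPM in cycling and 71.1 CPM in non-cycling members (log2 ratio 3.17, 2.90 to 3.44). Of 5 primary granule genes 3 were higher and 1 lower. Elane (4.40) and Prtn3 (4.75) are genes whose level the rule limited, and their values are a description of the members. Ms4a3, a membrane protein of granulocyte progenitors that the rule did not use, was at 137 and 8.69 CPM (3.98), while Srgn, the proteoglycan core of granules, was lower (-1.71). Of 13 secondary granule genes 1 was higher, Chil3 (1.05), and 2 were lower, Ceacam10 (-2.39) and Slc11a1, a metal transporter (-2.43), with a list median of -0.12. Of the 19 late genes 1 was higher, Stfa1, a cysteine protease inhibitor whose near-identical copies may split reads (3.79). Cebpe, the transcription factor of the secondary granule stage, was at 491 against 257 CPM (0.93), short of 2-fold.

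Within the secondary granule list the rule genes went in different directions: Camp (0.61) and Ngp (0.37) were higher and Ltf lower (-0.48) in cycling members. Lower also were 10 of 19 tertiary granule and late genes (list median -1.03), 12 of 17 receptors and signals of mature neutrophils (-1.24) and 12 of 14 interferon response genes (-1.54). Mmp8 was at 294 CPM in cycling and 2114 CPM in non-cycling members (-2.85), Mmp9 at 267 and 1818 CPM (-2.77), and Retnlg at 2036 and 13719.6 CPM (-2.75). Ly6g (-1.47), S100a6, a calcium-binding protein (-2.47), and Cxcr2, the chemokine receptor that draws neutrophils from the marrow (-1.64), were lower as well. Mesenchymal markers moved with the split: 3 of 4 tested were lower in cycling members (list median -3.34), led by Col1a1 at 26.8 and 428 CPM. The 10 markers summed to 66.9 CPM in cycling and 123 CPM in non-cycling vehicle members, with Acan, Lepr, Postn and Sox9 at 0 in both, and to 121 and 962 CPM in the teriparatide library, where 2 cells held most Col1a1 UMIs. Their part in the other differences was not tested.

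Both libraries held the gradient, with larger ratios for Mmp8, Chil3 and Cebpe among the few vehicle cells. In the vehicle library Mmp8 was at 91.2 CPM in cycling and 3392 CPM in non-cycling members (-5.22), in the teriparatide library at 318 and 2049 CPM (-2.69). Fcnb was at 590 and 66.9 CPM in the vehicle library (3.14) and at 645 and 71.4 CPM in the teriparatide library (3.18). Chil3 log2 ratios were 2.42 and 1.00 and those of Cebpe 4.15 and 0.83, the vehicle value resting on 3 UMIs in non-cycling cells. Il1b, the gene of interleukin 1 beta, went in opposite directions, 0.84 for vehicle and -0.87 for teriparatide. The difference between the libraries was not tested.

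Against the cells called promyelocytes here, a class that the rule cannot separate from granulocyte-monocyte progenitors, members had little primary granule RNA and far more late granule RNA. Of 5463 tested genes 12.4% were higher and 30.1% lower in the members, and the median of all genes was -0.44. All 8 primary granule genes were lower (list median -5.06), 3 of them by the rule; of those the rule did not use, Ctsg, cathepsin G, was at 2.34 CPM in the members and 1397 CPM in the promyelocytes (-9.22), and Ms4a3 at 67.6 and 889.5 CPM (-3.72). Monocyte markers were lower in 6 of 8 genes (-1.88), for example F13a1 at 18.4 and 233 CPM. Led by Ly6c2, the 10 markers summed to 763 CPM in the 2 vehicle cells of the class, with 6 of them at 0, Ccr2 and Csf1r included, and to 2655 CPM in the 22 teriparatide cells, of which 5 held them at 50 or more per 10000 UMIs. Mesenchymal markers were higher in the members in 4 of 4 genes tested (2.78). They summed to 86.6 CPM in members and 52.0 CPM in promyelocytes of the vehicle library. In the teriparatide library they summed to 600 and 99.2 CPM, where 2 members held most Col1a1 UMIs. The part of the monocyte and mesenchymal markers in the comparison was not tested.

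Of the late genes, 19 of 19 were higher (3.23), with Retnlg at 8394 against 21.3 CPM (8.62), Mmp8 at 1278 against 4.74 CPM (8.07), and Mmp9 at 1108 CPM against 0 UMIs, at least 8.28 on the log2 scale. Ly6g was at 819 and 24.9 CPM (5.04). Of 13 secondary granule genes 9 were higher and 0 lower (1.29), but 3 of the 9 were the genes of the rule, and the median is the value of Camp, one of them. Among those the rule did not use were Lcn2, at 18254 and 3224 CPM (2.50), and Lyz2 (1.44). Fcnb went the other way, at 332 CPM in members and 1394 CPM in promyelocytes (-2.07), and Cebpe hardly differed (-0.03, interval -0.21 to 0.16).

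DNA replication and mitosis genes parted at this step. All 17 S phase genes tested were lower in the members than in the promyelocytes (list median -2.24), for example Mcm5, of the replicative helicase, at 35.4 and 201 CPM (-2.51), while 0 of 18 G2 and mitosis genes were called over both libraries (-0.46), for example Ube2c, a mitotic ubiquitin ligase partner (-0.08, -0.30 to 0.15). The G2 and mitosis list went in opposite directions in the 2 libraries: it summed to 2830.1 CPM in members and 381 CPM in promyelocytes of the vehicle library, and to 1333 and 2089 CPM in the teriparatide library. The promyelocytes were 2 and 22 cells, so the vehicle library contributed little to the pooled values; within the vehicle library Fcnb was at 405 and 1109.8 CPM (-1.45) and Lcn2 at 23495 and 2705 CPM (3.12).

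Mature neutrophils, the stage after, held few secondary granule transcripts and more RNA of receptors and inflammatory signals. Of 4792 tested genes 19.3% were higher and 16.5% lower in the immature members, with a median of -0.03. Secondary granule genes were higher in 9 of 13 and lower in 1 (list median 1.94); the rule fixed 3 of these, and among the others Lcn2 was at 18254 and 3955 CPM (2.21), Cd177 at 1170 and 308 CPM (1.92) and Cybb, the catalytic subunit of the NADPH oxidase, at 1718 and 447 CPM (1.94). Chil3 was at 10098 against 1092 CPM (3.21). Over the 60 mature cells left without those of high erythroid or monocyte markers, Chil3 was at 246 CPM.

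Fcnb was nearly confined to the immature cells in this pair, at 332 CPM with 1 UMI in all 63 mature cells (7.04, 4.55 to 12.3). Cebpe was at 364 and 25.3 CPM (3.85), Lta4h, which makes leukotriene B4, at 281 and 5.05 CPM (5.80, 3.94 to 8.84) and Orm1, an acute phase protein, at 202 and 2.53 CPM (6.32). The cycle lists were higher in 15 of 15 and 17 of 17 genes.

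Lower in the immature cells were 15 of 17 mature receptors and signals (list median -1.91) and 9 of 14 interferon genes (-1.49). The dissociation and stress list moved the same way, with 6 of 11 genes lower and 0 higher (-1.20). In the list of the parathyroid hormone receptor and its cyclic AMP response 7 of 12 were lower and 1 higher (-1.55). The part of these 2 lists in the other differences was not tested. Csf3r, the receptor for the growth factor G-CSF, was at 127 and 854 CPM (-2.75), Cxcr2 at 216 and 897 CPM (-2.05), Il1b at 409 and 6932 CPM (-4.08) and Cxcl2, a neutrophil chemokine, at 320 and 6798 CPM (-4.41). Of 19 late genes 4 were higher and 7 lower: Retnlg was at 8394 and 33999 CPM (-2.02) and S100a6 at 2960 and 9257 CPM (-1.64), whereas Mmp8 (-0.67) and Mmp9 (-0.55) differed by under 2-fold. The signs of Csf3r and Retnlg held within each library: Csf3r was at 114 and 1059 CPM in the vehicle and 128 and 830.2 CPM in the teriparatide library, and Retnlg log2 ratios were -2.19 and -2.00. Erythroid markers, 4 of 4 lower in the immature cells (-7.35), came from a mature class in which 1 cell of 63 held erythroid markers at 50 or more per 10000 UMIs. Hba-a1 in the mature class was at 8891 CPM over all 63 cells and at 74.4 CPM over the 60 left without those of high erythroid or monocyte markers; over all immature members it was at 35.7 CPM. Of 8 monocyte markers tested, 7 were lower in the immature cells (list median -2.63), for example Csf1r at 17.5 and 134 CPM, and Ly6c2 was not (0.42). Over those 60 mature cells Csf1r (129 CPM), Klf4 (63.0) and Ms4a6c (74.4) stayed above the immature members of each library. Ccr2 (11.4 CPM), Fn1 (20.0) and F13a1 (2.86) did not. These 3 were at 31.5, 23.6 and 11.8 CPM in the vehicle members. In the teriparatide members, without the 2 cells of high mesenchymal markers, they were at 16.2, 34.9 and 19.1 CPM. The 10 markers, led by Ly6c2, summed to 1421 CPM in immature and 818 CPM in mature vehicle cells, where 8 of them, Ccr2 included, were at 0, and to 1272 and 1810.0 CPM in the teriparatide library, with none at 0. Over the same 60 mature cells, an alternative chosen after seeing the data, Csf3r was at 922, Cxcr2 at 967, Il1b at 7656 and Cxcl2 at 7644 CPM, no lower than over all 63, and 793 genes were lower in the immature cells against 790 over all 63.

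**Figure D4:**
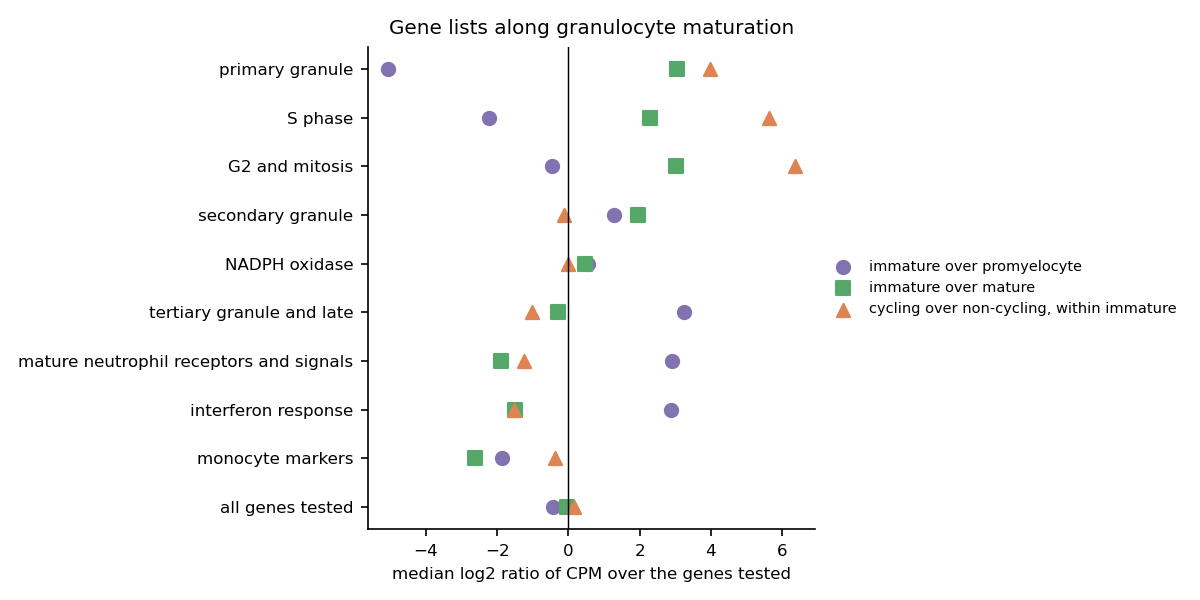
Median log2 ratio (x axis) of 10 gene lists (rows) in 3 comparisons: immature members over promyelocytes, immature members over mature neutrophils, and cycling over non-cycling members. The late list is at 3.23, -0.29 and -1.03, and the receptor list at 2.92, -1.91 and -1.24.

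Between the conditions, the members of the teriparatide library had more S100a8 and S100a6 and fewer Hspa1a and Hspa1b transcripts for their depth. The S phase list and the G2 and mitosis list also summed to lower levels, while the histone gene Hist1h2ap was higher (log2 ratio 1.59). Of 4472 tested genes 4.54% were higher and 9.93% lower, and the median log2 ratio of all of them was -0.31, so a gene near -0.31 kept its place among the others. Of the called genes 31.4% were higher; when ratios were centred on that median, 70.2% were. The same centring moved the higher share from 29.1% to 52.6% against promyelocytes and from 54.0% to 57.4% against mature neutrophils.

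S100a8 was at 87108 CPM in the vehicle and 169564 CPM in the teriparatide members (log2 ratio 0.96, 0.94 to 0.98). In single cells its level was 969 per 10000 UMIs at the median (566 to 1715) and 1675 (209.5 to 2765), with overlapping ranges. S100a9, its partner, was at 129642 and 167781 CPM (0.37), S100a6 at 941 and 3122 CPM (1.73, 1.55 to 1.92) and Wfdc21, a protease inhibitor, at 3543 and 6290 CPM (0.83).

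The mesenchymal cells of the 2 libraries, which should not make calprotectin, held S100a8 and S100a9 at 27.4 and 127 CPM in sum. The part of background RNA in the members' values was not tested.

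Of the secondary granule list, 0 of 13 genes were called in either direction (list median -0.25). After centring on the median of all genes 1 was higher and 0 lower (0.07). Ngp was at 47553 and 38710 CPM (-0.30), Camp at 40456 and 31946 CPM (-0.34), Ltf at 10195 and 8029 CPM (-0.34) and Lcn2 at 23495 and 17833 CPM (-0.40), all near the median of all genes. Chil3 (0.02, -0.04 to 0.08), Cd177 (-0.13, -0.29 to 0.04), Mmp8 (0.03), Mmp9 (-0.01) and Retnlg (0.06, -0.01 to 0.12) had intervals that included 0; each of these 5 intervals lay above the median of all genes. Ly6g was at 689 and 829.7 CPM (0.27, 0.05 to 0.50). In the primary granule list 2 of 5 genes were lower, Elane (-1.73) and Ms4a3 (-1.05), with a list median of -0.96, where the rule had limited Elane and Prtn3 and after centring 1 of 5 stayed past 2-fold and Ms4a3 did not; of 12 granulocyte transcription factors Runx1 was higher (1.14, -0.25 to 3.04) and Nfil3 lower (-1.46), while Cebpe (-0.14, -0.43 to 0.17) and Spi1, the gene of PU.1 (-0.05), had intervals that included 0. The 8 subunits and regulators of the NADPH oxidase had 0 calls (-0.26), and of the 17 mature receptors and signals only Cxcr4, which retains neutrophils in the marrow, was called, at 189 and 91.9 CPM (-1.04); after centring on the median of all genes that call was lost and 2 genes of the list were higher.

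Among cell cycle genes, 10 of 15 S phase genes (list median -1.18) and 8 of 17 G2 and mitosis genes (-0.95) were lower in the teriparatide members. Mcm3 was at 66.9 and 18.96 CPM (-1.82, -2.62 to -0.95), Mcm5 at 98.4 and 30.3 CPM (-1.70), Ube2c at 622 and 199 CPM (-1.65, -1.90 to -1.39) and Cdc20, an activator of the anaphase ligase, at 118 and 36.0 CPM (-1.71). Centred on the median of all genes, 7 and 3 genes of the 2 lists stayed past 2-fold. Kpna2, a nuclear import receptor (-2.47), and Tfrc, the transferrin receptor (-2.33), were among the 10 genes named as lower. The histone gene Hist1h2ap, outside both lists, went the other way, at 122 and 366 CPM (1.59, 1.07 to 2.15). It was also higher in cycling than in non-cycling members (6.98). The cycling share above was called from the same lists and is no separate evidence.

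In the dissociation and stress list 4 of 11 genes were lower and 0 higher (list median -0.37, near that of all genes); after centring 2 were lower and 1 higher. The 4 were heat shock protein genes. Hspa1b was at 1504 CPM in the vehicle and 393 CPM in the teriparatide members (-1.94, interval -2.102 to -1.767) and its near-identical copy Hspa1a at 1177 and 337 CPM (-1.81); reads may be split between the copies. The others were Hspa8 (-1.20) and Hsp90aa1 (-1.16), while Fos, an immediate early gene of the same list, was near the median (-0.31). In the genes of the parathyroid hormone receptor and its cyclic AMP response 2 of 11 were lower, Nr4a2 (-1.05) and Per1 (-1.55), both transcription regulators induced by cyclic AMP, and 0 higher (-0.59), with 1 lower after centring; Pth1r itself had too few UMIs to be tested.

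Late and interferon genes were called in the higher direction only. Of the 19 late genes 4 were higher (list median 0.37), and 7 after centring on the median of all genes (0.69). The 4 were S100a6, Mmp25 (11.8 and 25.9 CPM, 1.13, -0.46 to 3.44), Stfa2 (3.28, from 1 vehicle UMI) and BC100530 (27.6 and 275 CPM, 3.32, 2.27 to 4.64). The last 2 belong to the stefin A cluster, whose near-identical copies may exchange reads, as does Gm5483. The Gm5483 ratio (4.74, 2.88 to 7.79) rested on 2 vehicle UMIs. BC100530 was seen in 36 of 183 teriparatide cells, with 34.8% of its UMIs in 1 cell. Of 14 interferon genes 5 were higher (0.29), and 6 after centring (0.61); the 5 were Ifit1 at 19.7 and 59.1 CPM (1.59, 0.34 to 3.23), Oasl2 (1.08), Rsad2 (1.04), Ifit3 (2.09, -0.45 to 7.42) and Ifitm1, with 0 and 198 UMIs, at least 2.41. Ifitm1 was seen in 32 of 183 cells, 1 of which held 38.9% of the UMIs.

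RNA of mesenchymal genes was counted at higher levels in the teriparatide members, much of it in 2 cells. All 4 mesenchymal markers with enough UMIs were higher in the teriparatide members (list median 2.86), and the 10 markers summed to 86.6 and 600.3 CPM, with Col1a1, the collagen of bone, the most abundant in both and Acan, Lepr, Postn and Sox9 at 0 in the vehicle members. Col1a1 had 8 and 832 UMIs, but 2 teriparatide cells held 87.6% of the latter; without these 2 cells, whose mesenchymal markers reached 50 per 10000 UMIs, it was at 32.7 CPM against 31.5 CPM. Without them the 10 markers summed to 153 CPM in the teriparatide members, with Col2a1 the most abundant at 48.3 CPM, and 2 of the 4 tested stayed past 2-fold (list median 0.97), Col2a1 (2.03) and Sparc (1.38), while Col1a1 (0.06) and Col1a2 (0.55) did not. Mgp, a matrix protein of cartilage and stroma, was spread over 102 of 183 cells, with 0 and 178 UMIs, and stayed at 53.4 CPM. Without the same 2 cells S100a8 was at 169695 CPM and S100a6 at 3136 CPM, next to 169564 and 3122 CPM with them. Erythroid markers, led by Blvrb in the vehicle and Hbb-bs in the teriparatide members, summed to 47.2 and 132 CPM. Of 4 tested, 3 were higher in the teriparatide members (list median 2.18), and 3 after centring (2.49). The part of this RNA in the other differences was not tested.

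The conditions were also compared at matched cycle state. Among cycling members, 9 and 48 cells, 3.15% of 2826 genes were higher and 7.4% lower in the teriparatide library, with a median of -0.31. The S phase list then had 4 of 15 genes lower (-0.67). The G2 and mitosis list had 2 of 17 lower (-0.41), close to the median of all genes. These cells had been selected by UMIs of the same lists, which limits how far the lists could differ. Outside these lists, the histone genes Hist1h2ap (2.22, 1.69 to 2.80) and Hist1h2ae (2.23, 1.17 to 3.56) were higher. So was Hist1h4d, with 0 and 74 UMIs (at least 1.53). S100a8 was at 82778 and 162398 CPM (0.97), S100a6 at 243 and 929.8 CPM (1.93, 1.48 to 2.43) and Retnlg at 906 and 2168 CPM (1.26, 1.02 to 1.51), and 7 of 17 late genes were higher and 1 lower (0.97). Of the 48 teriparatide cells, 7 with at least 10 late UMIs held 77.7% of the Retnlg and 78.3% of the Mmp8 UMIs, and the median cell was not higher (2 late UMIs of 2000 in vehicle and 1 in teriparatide). Hspa1b was at 1764 and 339 CPM (-2.38).

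Among non-cycling members, 10 and 126 cells, 10.1% of 2724 genes were higher and 8.41% lower, with a median of -0.14. S100a8 (95049.5 and 175606 CPM, 0.89) and S100a6 (2220.3 and 4879.8 CPM, 1.14) were higher here too. Retnlg (21266 and 13333 CPM, -0.67) and Mmp8 (3392 and 2049 CPM, -0.73) were lower, by under 2-fold. Of the late list 4 of 19 genes were called higher and 0 lower (list median 0.03). Chil3 was at 2622 and 6977 CPM (1.41, 1.23 to 1.60) and Cebpe at 33.5 and 268 CPM (3.00, 1.45 to 5.29), the first from 3 UMIs. Hspa1a was lower (-2.44), as were Junb, an immediate early factor (-1.33), G0s2, a lipase inhibitor (-1.60), and Il1r2, the decoy receptor for interleukin 1 (-1.46), while Hsp90aa1 was not separated from 0 (0.17, -0.41 to 0.81).

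S100a8, S100a6, Hspa1a and Hspa1b kept 1 sign in both cycle states. For the summed UMIs of Retnlg and Mmp8 the signs were opposite in cycling and non-cycling members, with most teriparatide UMIs of the cycling state in the 7 cells above, and the difference between the states was not tested. The 10 non-cycling and 9 cycling vehicle cells limit all of these values.

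**Figure D5:**
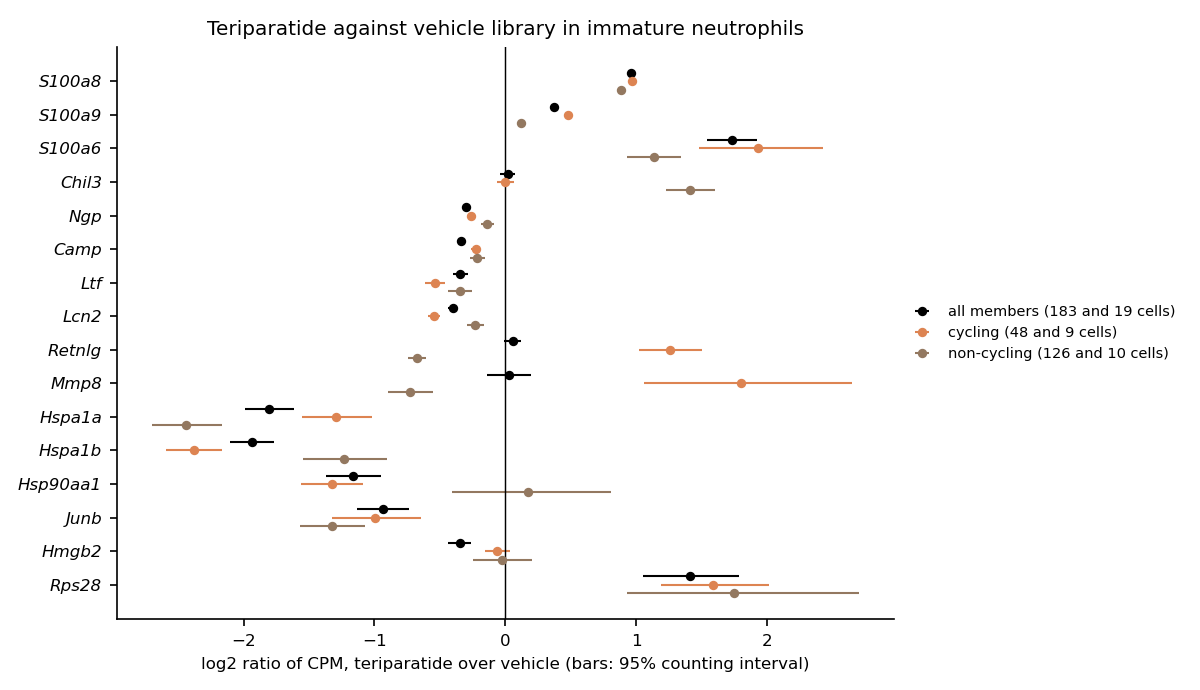
Log2 ratio of teriparatide over vehicle for 16 genes (bars are 95% counting intervals) in all members, cycling members (48 and 9 cells) and non-cycling members (126 and 10 cells). S100a8 lies at 0.96, 0.97 and 0.89; Mmp8 at 0.03, 1.80 and -0.73.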

How the data were processed

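Single-cell 3' RNA libraries (10x v2 chemistry), 1 per condition, were counted by the authors with Cell Ranger 2.1.0 against mm10 per the submitters' processing notes; the header of the deposited matrices names version 3.1.0. The deposited values were whole-number UMI counts per gene and barcode for 27998 genes, not normalized. The vehicle matrix held 1286 barcodes and 10567335 UMIs (median 3622 per barcode), the teriparatide matrix 2142 barcodes and 26270041 UMIs (median 6217.5). Counts of 65 repeated gene symbols were summed. Doublets were limited only by the 6000-gene ceiling, with no caller run. Counts were summed over member cells per library and scaled to CPM; log2 ratios carry exact conditional binomial 95% intervals, shares Clopper-Pearson intervals, share ratios Katz and share differences Newcombe intervals. A group at 0 was set to 3 counts. Cycling shares were taken after thinning to 2000 UMIs (seed 7); shares of cells with a UMI are unthinned unless stated. No test was run, because each condition had 1 library. Named genes were list genes, the 15 most abundant genes and, per comparison, the 10 in each direction whose interval lay farthest from 0; Ptprc was added after its values were seen. The members and lists were chosen with earlier results of these data known. Promoter windows were RefSeq entries; Mmp9 and Cebpe are not shown. Python 3.11.15, numpy 2.4.6, pandas 2.3.3, scipy 1.17.1 and matplotlib 3.10.9 were used, and the scripts were tested on simulated data.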

Additional observations from a re-analysis of the deposited data

Results flagged for a closer look

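Outside the cells analysed above, 4 teriparatide barcodes of 925 that failed the cell filters met the neutrophil rule, against 0 of 737 vehicle barcodes. Of these 4, 3 exceeded the mitochondrial limit and 2 had under 200 genes. They were noted because they lie outside the cells of the main comparisons. The alternative setting with no mitochondrial limit takes in those that failed that limit alone.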

How the results depend on the processing

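Of 118 values under alternative settings, 98 stayed within the counting interval of a share or within 1.5 times of a count, and 20 moved further. Other limits of the rule and leaving out the cells of high mesenchymal markers moved none of the values computed under them past these bounds. The teriparatide share of immature neutrophils was 12.3% with no mitochondrial limit and 12.2% in male cells only, and the cycling share of teriparatide members was 51.9% without thinning. Higher genes in the teriparatide members numbered 341 when scaled by the median ratio, 384 with a minimum of 20 UMIs and 384 with all genes, against 203; lower genes numbered 145, 963 and 2203, against 444. Within cycling members alone, an alternative chosen after seeing the data, 89 and 209 genes were higher and lower, and within non-cycling members 229 were lower. Genes higher in immature than in mature neutrophils numbered 520 in male cells only and 510 with S100a8 and S100a9 at 100 or more per 10000 UMIs for the mature class, against 927; lower genes numbered 2520 with all genes, against 790. Against promyelocytes 1097 genes were higher when scaled by the median ratio, against 675, and 983 (male cells only), 990 (median ratio), 2651 (20 UMIs) and 4733 (all genes) were lower, against 1645. With minimums of 20 UMIs or fewer, genes enter whose ratios rest on few counts, so the counts of called genes depend on the minimum. Fitted error between mice is not available from 1 library per condition. No paired analysis was possible because each condition has 1 library and no result comes from a test.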
